A study of Mus musculus with 6 samples.

Results

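The genes of glycolysis, with the glucose and lactate transporters and the enzymes that regulate phosphofructokinase, were followed in differentiated muscle cell cultures from Sfpq knockout mice and from controls. The 34 genes were listed by name, and 33 of them had an accession among the 34654 genes of the deposited tables. Of these, 31 passed the filter on low values (TPM, transcripts per 1000000 transcripts, of at least 1 in at least 3 libraries) and entered a test over 12460 genes. Slc2a3 and Fbp2 were below the filter, and Pfkfb1 is not analysed here because no accession matched it. Myoblasts, the precursor cells of muscle, were isolated from male mice aged 1 month and differentiated for 4 days in medium with 2% horse serum, in which such cells fuse into myotubes. One group, labelled SFPQ_KO, came from SfpqSM-KO mice, in which Sfpq, which encodes a nuclear RNA-binding protein, was knocked out in skeletal muscle, and the other, labelled Cont, came from control mice. Each group has 3 libraries of polyA RNA. The sources used here do not give the Cre line, the deleted exons or the genotype of the controls. The design text counts 3 mice per genotype, while the sample labels number replicates without naming a mouse or a culture. The p-values therefore set a difference only against the spread among these libraries, and part of that spread may be technical.

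Glycolysis splits glucose into pyruvate in the cytosol and yields ATP without oxygen. Glucose enters through transporters of the Slc2a family, is phosphorylated by hexokinase, is committed at phosphofructokinase and leaves the pathway as pyruvate or, after lactate dehydrogenase, as lactate that Slc16a transporters carry across the membrane. Most steps have several isozymes encoded by separate genes, and differentiating muscle is known to switch on its own forms, among them Pfkm, Pgam2, Eno3 and the insulin-responsive transporter Slc2a4.

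Sfpq stood at 18.3, 19.3 and 14.1 TPM in the SFPQ_KO libraries and at 48.6, 60.5 and 49.9 TPM in the Cont libraries, without overlap (limma adjusted p = 0.0531), so some RNA of the targeted gene was present in SFPQ_KO. Myotube markers were abundant in both groups, with a summed level of 111328 to 116378 TPM over 18 genes in SFPQ_KO and 102921 to 126830 TPM in Cont, led by Acta1, Mylpf and Mb. Single markers went different ways. All SFPQ_KO libraries lay above all Cont libraries for 2 of 18, Acta1 and Mylpf, and below for 3 of 18. Among all tested genes these shares were 4.27% above and 15.3% below. Fibroblast markers (11 genes) summed to 173.5 to 227.8 TPM in SFPQ_KO and 208 to 309.9 TPM in Cont, and the markers of undifferentiated myoblasts (9 genes with an accession) to 999.5 to 1098 and 702 to 1139 TPM. The fibroblast markers were led by Col3a1, at 141 to 246 TPM over the 6 libraries. Col1a1 was at 11.1, 24.9 and 11.6 TPM in SFPQ_KO and at 30.3, 35.9 and 75.9 TPM in Cont, without overlap (limma adjusted p = 0.271). Lum, the lowest of them, was at no more than 0.022 TPM in any library. Leukocyte Ptprc, Adgre1 and C1qa were listed at 0 in all 6. Markers of leukocytes, adipocytes and Schwann cells summed to at most 2.24, 1.87 and 1.46 TPM, and those of endothelium to at most 20.0 TPM. In bulk RNA, fewer cells of a type and less RNA per cell cannot be told apart.

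Transcripts of the pathway made up 3.30%, 3.55% and 3.57% of all TPM in the 3 SFPQ_KO libraries and 5.21%, 3.59% and 4.48% in Cont. Each SFPQ_KO library was below each Cont library, but Cont replicate 2 exceeded SFPQ_KO replicate 3 by a small margin, 35929 against 35751 TPM in sum. Aldoa, Gapdh and Eno3 together held 62.3% to 64.5% of the pathway's TPM, so these sums mostly follow 3 genes. Of the 31 tested genes 28 had lower values in SFPQ_KO, with a median difference in log2(TPM + 1) of −0.34, while 64.5% of all tested genes had lower values and their median was −0.07. Bpgm, Ldhb and Eno2 were the 3 with higher values.

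No gene of the pathway passed the test. Limma with Benjamini-Hochberg adjustment over all 12460 genes called 0 of 31 at an adjusted p under 0.05, and 0% of all genes, and the smallest adjusted p in the pathway was 0.166 for Hk1. At an unadjusted p under 0.05, 8 of 31 (25.8%) were lower and 0 were higher, where 9.61% of all tested genes were lower and 2.68% higher. All SFPQ_KO libraries lay below all Cont libraries for 8 of 31 genes (25.8%), where 15.3% of all tested genes did, and above for 0 of 31, where 4.27% did. The count of lower genes at an unadjusted p under 0.05 depends on single libraries. Without Cont replicate 2 it was 19 of 31, beside 1265 of 12295 among all tested genes. It was 9 without SFPQ_KO replicate 2 (1233 of 12352 among all) and 5 without SFPQ_KO replicate 3 (792 of 12360). It was 4 without SFPQ_KO replicate 1 (761 of 12346), Cont replicate 1 (1047 of 12319) or Cont replicate 3 (650 of 12293). Scaling the libraries by the median of ratios gave 4 of 32 lower (12.5%) at that p, beside 5.27% of all genes lower and 6.32% higher, and 27 of 32 with lower values, beside 48.5% of all genes. Quantile normalization gave 6 of 31 lower (19.4%), beside 5.43% lower and 5.56% higher, and 28 of 31 with lower values, beside 49.7% of all genes.

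**Figure D1:**
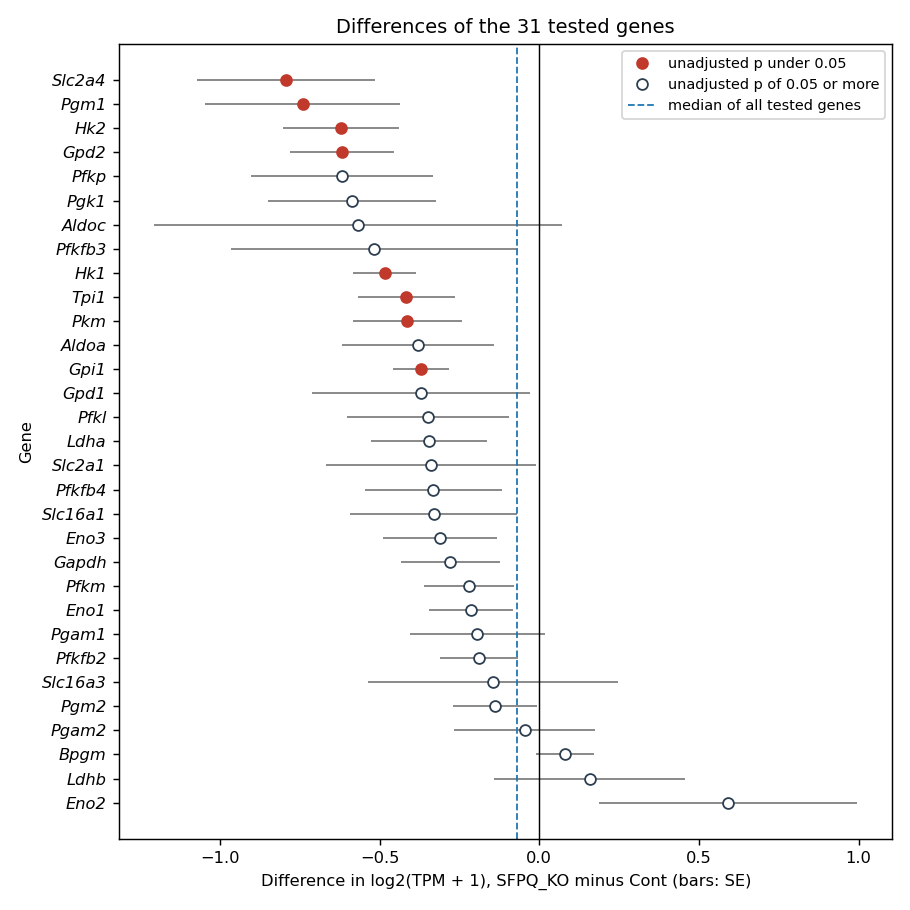
Difference in log2(TPM + 1), SFPQ_KO minus Cont (x axis), for each of the 31 tested genes (y axis), with bars for the SE from limma and 3 libraries per group; filled points have an unadjusted p under 0.05. Of the 31 points 28 lie left of 0, the 8 filled ones run from −0.79 for Slc2a4 to −0.37 for Gpi1, and the dashed line marks the median of all tested genes, −0.07.

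The libraries of the control group were not alike for these genes. Cont replicate 2 had the lowest control value for 25 of the 31 tested genes, against 29.2% of all tested genes, and it was below the highest SFPQ_KO library for 22 of 31, against 53.8% of all tested genes. The median gap in log2(TPM + 1) over the 31 genes was 0.47 for Cont replicate 1 minus Cont replicate 2 and 0.44 for Cont replicate 3 minus Cont replicate 2, while over all tested genes these gaps were −0.11 and −0.04. Among the SFPQ_KO libraries replicate 2 had the highest value for 20 of 31 genes, against 35.8% of all tested genes. The median coefficient of variation of the 31 genes was 14.0% in SFPQ_KO and 24.6% in Cont, beside 11.1% and 12.3% for all tested genes. The coefficient was larger in Cont for 17 of the 31 genes, near the 55.3% of all tested genes for which it was. Among the controls, the summed myotube markers were also lowest in Cont replicate 2 (102921 TPM) and highest in Cont replicate 1 (126830 TPM), and the summed markers of undifferentiated myoblasts were highest in Cont replicate 2 (1139 TPM) and lowest in Cont replicate 1 (702 TPM). That sum mostly follows Myod1 (619 TPM in Cont replicate 2 and 274 TPM in Cont replicate 1), while others such as Myf5 (33.2 and 39.9 TPM) had the opposite order. Between the genotypes, 11 of 18 myotube markers had lower values in SFPQ_KO with a median log2 difference of −0.17, and 7 of 9 markers of undifferentiated myoblasts did with a median of −0.51, beside 64.5% of all tested genes, a share that 11 of 18 does not exceed. The 2 myoblast markers with higher values, Myod1 (log2 difference 0.42) and Cdh15 (0.23), were the most abundant of the 9. Among the 6 tested fibroblast markers 5 had lower values in SFPQ_KO, with a median of −0.46. The part of these markers in the differences of the glycolytic genes was not tested.

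**Figure D2:**
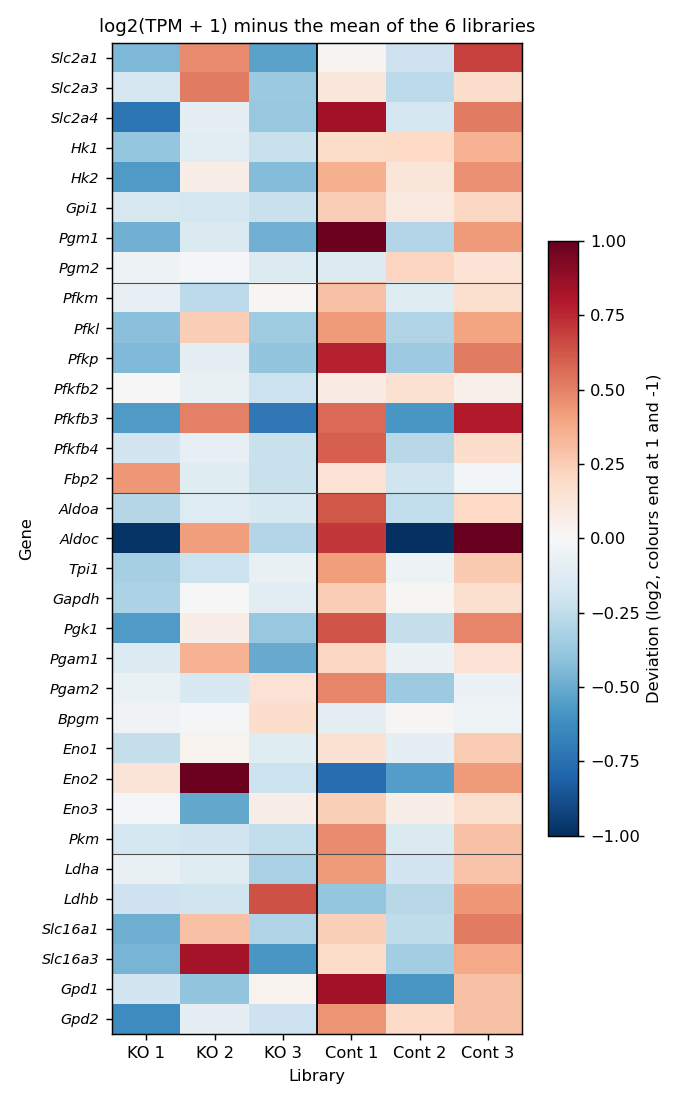
Deviation of log2(TPM + 1) from the mean of the 6 libraries for each of 33 genes (rows, in pathway order, with lines between the 4 groups of steps) in each library (columns, KO for SFPQ_KO); red is above and blue below the mean, and colours end at 1 and −1. Cont 1 and Cont 3 are red for most genes, and Cont 2 is mostly pale or blue like KO 1 and KO 3. KO 2 is most strongly red for Eno2 and Slc16a3, and also red for genes such as Slc2a1, Slc2a3, Pfkfb3, Aldoc and Pgam1.

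All 7 tested genes of glucose entry, hexokinase and the steps at glucose 6-phosphate had lower values in SFPQ_KO, with a median log2 difference of −0.48. Of these, 5 had an unadjusted p under 0.05 in limma. Lower values were found for 64.5% of all tested genes, and 9.61% were lower at that p. Slc2a4 (GLUT4), which moves to the cell surface in response to insulin, stood at 70.8, 110.4 and 90.2 TPM in SFPQ_KO and at 212, 104 and 169 TPM in Cont. Cont replicate 2 lay within the SFPQ_KO range, and the log2 difference was −0.79 (SE 0.28, limma adjusted p = 0.344). Slc2a1 (GLUT1), the basal transporter, was at 35.9, 68.9 and 33.7 TPM in SFPQ_KO and at 50.4, 42.7 and 79.8 TPM in Cont, with groups that overlapped. Slc2a3 (GLUT3), best known from neurons, was at 0.634, 1.63 and 0.418 TPM in SFPQ_KO and at 0.989, 0.534 and 1.075 TPM in Cont.

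Hk1, the hexokinase found in most tissues, had the smallest p of the pathway. It was at 89.1, 108 and 100.01 TPM in SFPQ_KO and at 133, 135 and 149 TPM in Cont, a log2 difference of −0.48 (SE 0.10, limma adjusted p = 0.166). The groups did not overlap, and Cont replicate 2 lay between the other controls. Hk2, the insulin-regulated hexokinase of muscle, was at 36.9, 58.0 and 40.8 TPM in SFPQ_KO and at 71.0, 60.2 and 76.3 TPM in Cont (log2 difference −0.62, SE 0.18, adjusted p = 0.289). Its groups were separated by SFPQ_KO replicate 2 and Cont replicate 2, which were close to each other. Summed over both genes, hexokinase TPM was 144 ± 20.1 in SFPQ_KO and 208 ± 15.6 in Cont (SD, n = 3 each).

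Gpi1, which turns glucose 6-phosphate into fructose 6-phosphate, varied little within each group, with a coefficient of variation of 2.31% in SFPQ_KO and 5.14% in Cont. It stood at 889.7, 877 and 850.2 TPM in SFPQ_KO and at 1176, 1064 and 1146 TPM in Cont, with no overlap and a log2 difference of −0.37 (SE 0.09, limma adjusted p = 0.223). Pgm1, the phosphoglucomutase that links glycolysis to glycogen, was at 357, 451 and 359 TPM in SFPQ_KO and at 987, 408 and 672 TPM in Cont, where replicate 2 was below SFPQ_KO replicate 2 (log2 difference −0.74, SE 0.31, limma adjusted p = 0.400). Without Cont replicate 1 the difference was −0.44, and without Cont replicate 2 it was −1.07. This gene carried the symbol Pgm2 in older annotations. The gene now named Pgm2 was low, at 4.17 to 4.63 TPM in SFPQ_KO and 4.18 to 5.60 TPM in Cont.

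The promoter windows of 5 genes are shown because their RNA differed in distinct ways: Gpi1 and Hk2 had separate groups, Slc2a1 and the lactate exporter Slc16a3 were high in SFPQ_KO replicate 2, and the muscle isozyme Pgam2 was near equal. Each window runs from 250 bases before to 50 bases after the start of a RefSeq gene model on GRCm38.p6, printed 5′ to 3′ on the gene's strand. Capitals mark ACGTG or GCGTG, the core of the hypoxia response element bound by the Hif1a factor, and CAGCTG, an E-box of the kind that myogenic factors bind, on either strand.
Gpi1 (chr7:34230287-34230586, minus strand): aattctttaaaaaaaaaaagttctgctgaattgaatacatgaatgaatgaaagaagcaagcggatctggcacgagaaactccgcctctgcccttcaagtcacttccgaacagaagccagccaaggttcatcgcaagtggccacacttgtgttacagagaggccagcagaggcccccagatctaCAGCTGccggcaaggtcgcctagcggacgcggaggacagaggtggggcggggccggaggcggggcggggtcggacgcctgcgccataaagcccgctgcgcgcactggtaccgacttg
Hk2 (chr6:82774405-82774704, minus strand): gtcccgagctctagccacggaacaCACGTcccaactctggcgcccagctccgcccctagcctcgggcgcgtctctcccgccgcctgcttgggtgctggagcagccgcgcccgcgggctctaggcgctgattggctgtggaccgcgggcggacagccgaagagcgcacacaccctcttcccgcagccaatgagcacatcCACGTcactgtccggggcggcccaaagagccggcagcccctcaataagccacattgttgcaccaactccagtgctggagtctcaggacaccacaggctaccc
Slc2a1 (chr4:119108495-119108794, plus strand): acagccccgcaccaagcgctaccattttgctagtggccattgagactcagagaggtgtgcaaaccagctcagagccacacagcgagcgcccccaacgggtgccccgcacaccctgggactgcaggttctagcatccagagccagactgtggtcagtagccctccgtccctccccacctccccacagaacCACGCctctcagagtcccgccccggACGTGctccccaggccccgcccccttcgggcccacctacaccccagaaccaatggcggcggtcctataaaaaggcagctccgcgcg
Slc16a3 (chr11:120948817-120949116, plus strand): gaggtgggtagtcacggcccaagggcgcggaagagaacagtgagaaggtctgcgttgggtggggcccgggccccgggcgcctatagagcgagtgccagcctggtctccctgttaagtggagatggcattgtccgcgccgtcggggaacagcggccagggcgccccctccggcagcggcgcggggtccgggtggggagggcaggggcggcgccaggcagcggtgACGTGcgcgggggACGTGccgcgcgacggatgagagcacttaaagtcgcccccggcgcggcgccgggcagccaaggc
Pgam2 (chr11:5803747-5804046, minus strand): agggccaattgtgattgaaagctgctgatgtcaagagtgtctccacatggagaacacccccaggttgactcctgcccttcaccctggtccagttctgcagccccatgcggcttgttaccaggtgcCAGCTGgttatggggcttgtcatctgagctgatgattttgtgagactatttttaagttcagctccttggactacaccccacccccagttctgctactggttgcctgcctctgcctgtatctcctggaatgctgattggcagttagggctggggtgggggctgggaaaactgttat
Hk2, Slc2a1 and Slc16a3 each held 2 matches to the hypoxia core, and Gpi1 and Pgam2 each held 1 E-box. Over all genes listed, 31 of 34 had 1 or more windows, 49 in all, some of which overlap. The hypoxia core was found in 36 of 49 windows (73.5%) and in 43.8% of 32851 windows of all genes, and CAGCTG in 8 of 49 (16.3%) and in 16.3% of all windows. The windows of all genes were not matched to the listed ones for base content or expression, and the core holds a CG pair. Ldha had the most matches to the core in 1 window, 7, and windows of Slc16a1 and Hk1 had 5. A match describes these letters and is no evidence of binding.

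Phosphofructokinase commits sugar to the pathway. All 6 tested genes of this step and its regulation had lower values in SFPQ_KO, with a median log2 difference of −0.34, where 64.5% of all tested genes did. At an unadjusted p under 0.05 in limma 0 of the 6 were lower, beside 9.61% of all tested genes. The muscle subunit Pfkm was at 1407, 1247 and 1509 TPM in SFPQ_KO and at 1829.9, 1373 and 1666 TPM in Cont, a log2 difference of −0.22 (SE 0.14, limma adjusted p = 0.564) that was −0.13 without Cont replicate 1 and −0.34 without Cont replicate 2. The liver subunit Pfkl was at 43.2, 68.9 and 45.1 TPM in SFPQ_KO and at 78.0, 46.9 and 76.6 TPM in Cont. The platelet subunit Pfkp was at 20.7, 26.6 and 21.5 TPM in SFPQ_KO and at 49.2, 22.0 and 41.3 TPM in Cont. For both minor subunits Cont replicate 2 was close to SFPQ_KO replicates 1 and 3.

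The Pfkfb enzymes make and remove fructose 2,6-bisphosphate, a potent activator of phosphofructokinase. Pfkfb3, the inducible form, stood at 12.0, 26.3 and 10.7 TPM in SFPQ_KO and at 27.6, 11.8 and 32.3 TPM in Cont. The values fell into a lower and a higher level with both genotypes in each: SFPQ_KO replicate 2 was with Cont replicates 1 and 3, and Cont replicate 2 with SFPQ_KO replicates 1 and 3. Pdk1, a kinase that holds pyruvate dehydrogenase inactive and is no member of the pathway list, was high and low in the same libraries, at 26.4, 56.3 and 25.6 TPM in SFPQ_KO and 55.7, 25.2 and 54.8 TPM in Cont, and was picked after its values were seen. Pfkfb4 was at 11.4, 12.4 and 11.1 TPM in SFPQ_KO and at 20.4, 10.7 and 15.0 TPM in Cont. Pfkfb2, known from heart, was at 2.63, 2.43 and 2.12 TPM in SFPQ_KO and at 2.82, 3.02 and 2.74 TPM in Cont, with no overlap but an adjusted p of 0.567 in limma. Fbp2, the muscle fructose bisphosphatase that works in the opposite direction, was at 0.295 to 1.04 TPM in SFPQ_KO and 0.313 to 0.669 TPM in Cont.

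Of the 12 tested genes of lower glycolysis, 10 had lower values in SFPQ_KO, with a median log2 difference of −0.29, where 64.5% of all tested genes did. Tpi1 and Pkm had an unadjusted p under 0.05 in limma, and 9.61% of all tested genes were lower at that p. The muscle aldolase Aldoa, which splits the sugar into a pair of triose phosphates, was at 9284, 10310 and 10158 TPM in SFPQ_KO and at 17370.1, 9524 and 12943 TPM in Cont, so that Cont replicate 2 lay inside the SFPQ_KO range. Its log2 difference was −0.38 (SE 0.24, limma adjusted p = 0.553), and it was −0.16 without Cont replicate 1 and −0.60 without Cont replicate 2. The minor form Aldoc, known from brain, had the largest ratio of highest to lowest library of the 33 genes, 7.54, at 1.95, 6.76 and 3.73 TPM in SFPQ_KO and at 8.46, 1.70 and 12.8 TPM in Cont. Tpi1, which interconverts the trioses, was at 1594, 1731 and 1912 TPM in SFPQ_KO and at 2691, 1938 and 2407 TPM in Cont, and the groups did not overlap (log2 difference −0.42, SE 0.15, adjusted p = 0.361). Gapdh, which oxidises the triose phosphate and is often used as a loading control, also had separate groups, at 7604, 9454 and 8797 TPM in SFPQ_KO and at 11209.8, 9537 and 10555 TPM in Cont. Its log2 difference was −0.28 (SE 0.16, adjusted p = 0.503). Pgk1, which makes the first ATP, was at 498, 775 and 569 TPM in SFPQ_KO and at 1145, 627 and 1038 TPM in Cont, with groups that overlapped (log2 difference −0.59, SE 0.26, adjusted p = 0.427).

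The mutases, enolases and pyruvate kinase complete the pathway. Pgam2, the muscle phosphoglycerate mutase, was near equal in the group means, at 1311, 1236 and 1515 TPM in SFPQ_KO and at 1924, 1065 and 1319 TPM in Cont (log2 difference −0.05, SE 0.22, limma adjusted p = 0.945). The direction of that difference depends on the setting, since it was 0.04 after median-of-ratios scaling, 0.02 without SFPQ_KO replicate 2 and 0.19 without Cont replicate 1. Pgam1, the general mutase, was at 91.5, 129 and 71.0 TPM in SFPQ_KO and at 117, 96.7 and 112 TPM in Cont, with SFPQ_KO libraries both the highest and the lowest. Eno1, the general enolase, was at 1168, 1417 and 1272 TPM in SFPQ_KO and at 1533, 1299 and 1649.7 TPM in Cont, with groups that overlapped. Eno3, the muscle enolase, was at 3839, 2726 and 4088 TPM in SFPQ_KO and at 4598, 4076 and 4363 TPM in Cont, and SFPQ_KO replicate 2 was the lowest of the 6. Pkm, the pyruvate kinase of muscle and proliferating cells, was at 2069, 2042 and 1968 TPM in SFPQ_KO and at 3253, 2111 and 2859.6 TPM in Cont (log2 difference −0.41, SE 0.17, adjusted p = 0.402). Its SFPQ_KO libraries were within a narrow range just below Cont replicate 2. The tables hold a single accession for Pkm, so its splice forms M1 and M2 were not told apart.

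The 3 genes with a positive log2 difference did not pass either. Bpgm, which makes bisphosphoglycerate, had the smallest ratio of highest to lowest library of the 33 genes, 1.21, at 38.2, 38.5 and 44.4 TPM in SFPQ_KO and 36.8, 39.5 and 37.9 TPM in Cont. Eno2, the neuronal enolase, was at 7.002, 13.4 and 5.30 TPM in SFPQ_KO and at 3.31, 4.01 and 8.84 TPM in Cont (log2 difference 0.59, SE 0.40, limma adjusted p = 0.582). The difference was 0.25 without SFPQ_KO replicate 2, 0.36 without Cont replicate 1 and 0.95 without Cont replicate 3. Ldhb, the lactate dehydrogenase subunit of oxidative tissue, was at 134, 134 and 240.2 TPM in SFPQ_KO and at 117, 127 and 208 TPM in Cont, with replicate 3 the highest in each group. Its direction turned without SFPQ_KO replicate 3, to −0.12.

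**Figure D3:**
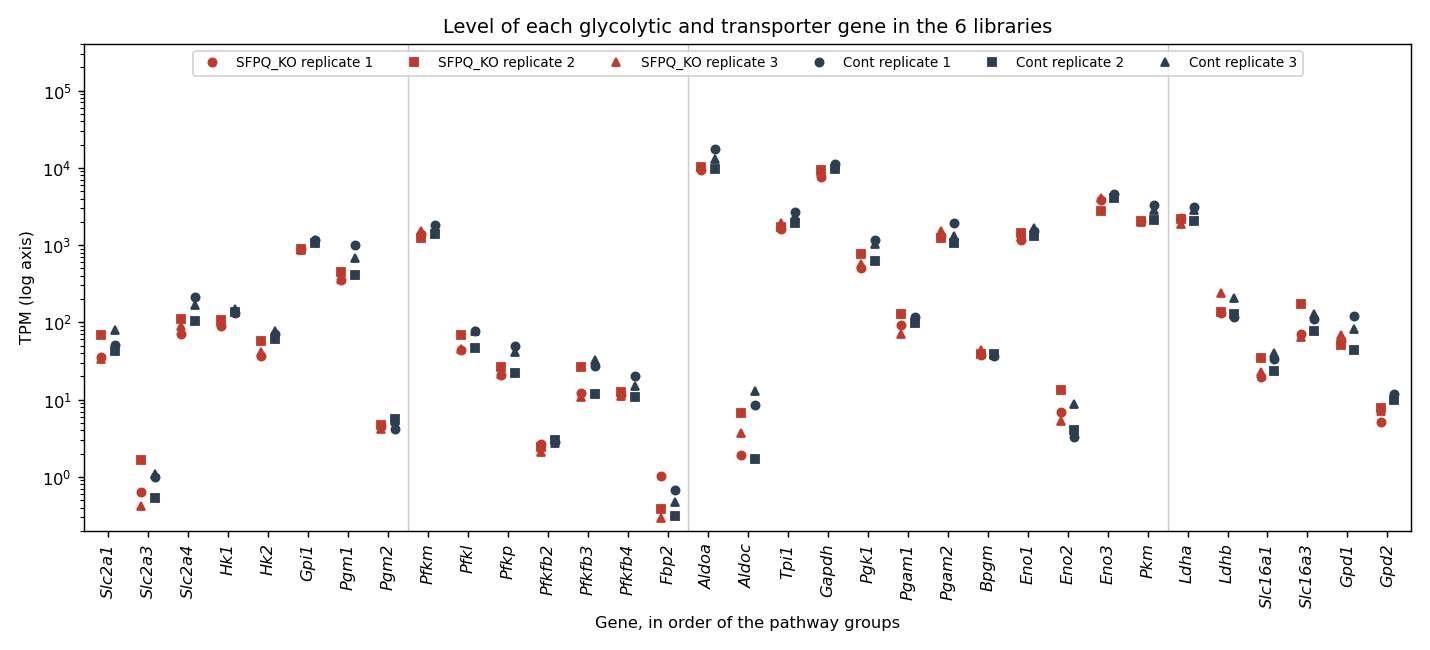
TPM on a log axis (y) of the 33 genes with an accession (x, in pathway order, lines between the 4 groups of steps) in the 3 SFPQ_KO libraries (red, left of each pair) and the 3 Cont libraries (dark, right); each point is 1 library and its shape the replicate number. Levels run from around 1 TPM for Slc2a3 and Fbp2 to 9284 TPM or more for Aldoa, and the squares of Cont replicate 2 sit low among the dark points for most genes.

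Of the 6 tested genes of lactate and glycerol phosphate, 5 had lower values in SFPQ_KO, with a median log2 difference of −0.34, where 64.5% of all tested genes did. Only Gpd2 had an unadjusted p under 0.05 in limma, and 9.61% of all tested genes were lower at that p. Ldha, the muscle subunit of lactate dehydrogenase, was at 2217, 2148 and 1866 TPM in SFPQ_KO and at 3131, 2043 and 2847 TPM in Cont (log2 difference −0.34, SE 0.18, limma adjusted p = 0.484). The difference was −0.22 without Cont replicate 1 and −0.53 without Cont replicate 2. Slc16a3 (MCT4), which exports lactate from glycolytic muscle, was at 69.8, 173 and 64.6 TPM in SFPQ_KO and at 111, 76.1 and 126 TPM in Cont, with SFPQ_KO replicate 2 the highest library. Its log2 difference of −0.14 (SE 0.39, adjusted p = 0.901) turned positive without SFPQ_KO replicate 1, SFPQ_KO replicate 3 or Cont replicate 3 (0.05, 0.11 and 0.01). Slc16a1 (MCT1), which carries lactate in either direction, was at 19.6, 34.4 and 22.4 TPM in SFPQ_KO and at 33.1, 23.2 and 40.3 TPM in Cont.

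The glycerol phosphate shuttle passes electrons from the cytosol to mitochondria through Gpd1 and Gpd2. Gpd2, its mitochondrial enzyme, was at 5.11, 7.85 and 7.16 TPM in SFPQ_KO and at 11.8, 9.79 and 10.6 TPM in Cont, with no overlap and a log2 difference of −0.62 (SE 0.16, limma adjusted p = 0.257). Gpd1, the cytosolic enzyme, was at 58.2, 50.5 and 68.4 TPM in SFPQ_KO and at 120.3, 44.2 and 82.2 TPM in Cont, and Cont libraries were both the highest and the lowest of the 6.

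The shares of the isozymes within each family overlapped between the genotypes in all 10 families. The forms known from muscle held most of the TPM in both groups for phosphofructokinase (Pfkm 94.8% ± 1.64 in SFPQ_KO and 94.0% ± 1.03 in Cont), phosphoglycerate mutase (Pgam2 93.2% ± 2.50 and 92.7% ± 1.38), lactate dehydrogenase (Ldha 92.3% ± 3.25 and 94.6% ± 1.64) and phosphoglucomutase (Pgm1 98.9% ± 0.11 and 99.1% ± 0.47; SD, n = 3 each). Aldoa held 99.9% or more of aldolase in each library. For hexokinase the general form led, with Hk2 holding 29.3%, 35.0% and 29.0% in SFPQ_KO and 34.9%, 30.9% and 33.9% in Cont. For enolase, Eno3 held 76.6%, 65.6% and 76.2% in SFPQ_KO and 75.0%, 75.8% and 72.5% in Cont, and SFPQ_KO replicate 2 stood apart with 34.1% from Eno1.

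The transporter Slc2a4 held a share of the summed TPM of Slc2a1, Slc2a3 and Slc2a4 of 66.0%, 61.0% and 72.5% in SFPQ_KO and 80.5%, 70.7% and 67.7% in Cont, a difference of −6.42 percentage points with overlapping groups. That difference was −2.65 without Cont replicate 1 and −3.68 without SFPQ_KO replicate 2. It was larger in size without Cont replicate 2, Cont replicate 3 or SFPQ_KO replicate 3. The summed TPM leaves out Slc2a6 (29.2, 52.8 and 40.2 TPM in SFPQ_KO and 36.7, 31.1 and 31.8 TPM in Cont) and Slc2a8 (16.3 to 21.3 TPM and 18.3 to 22.8 TPM). Slc16a3 held 78.1%, 83.5% and 74.2% of monocarboxylate transporter TPM in SFPQ_KO and 77.0%, 76.6% and 75.8% in Cont. Pfkfb3 held 46.2%, 64.0% and 44.8% of the measured Pfkfb TPM in SFPQ_KO and 54.3%, 46.4% and 64.5% in Cont, with Pfkfb1 not included. In 2-sided exact permutation tests over the 6 libraries, 1 share per family, none of the 10 families separated the genotypes (p from 0.4 to 1, adjusted over the families 0.875 to 1). With 3 against 3 such a test cannot give less than 0.1, so these p-values do not show that the shares are equal.

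**Figure D4:**
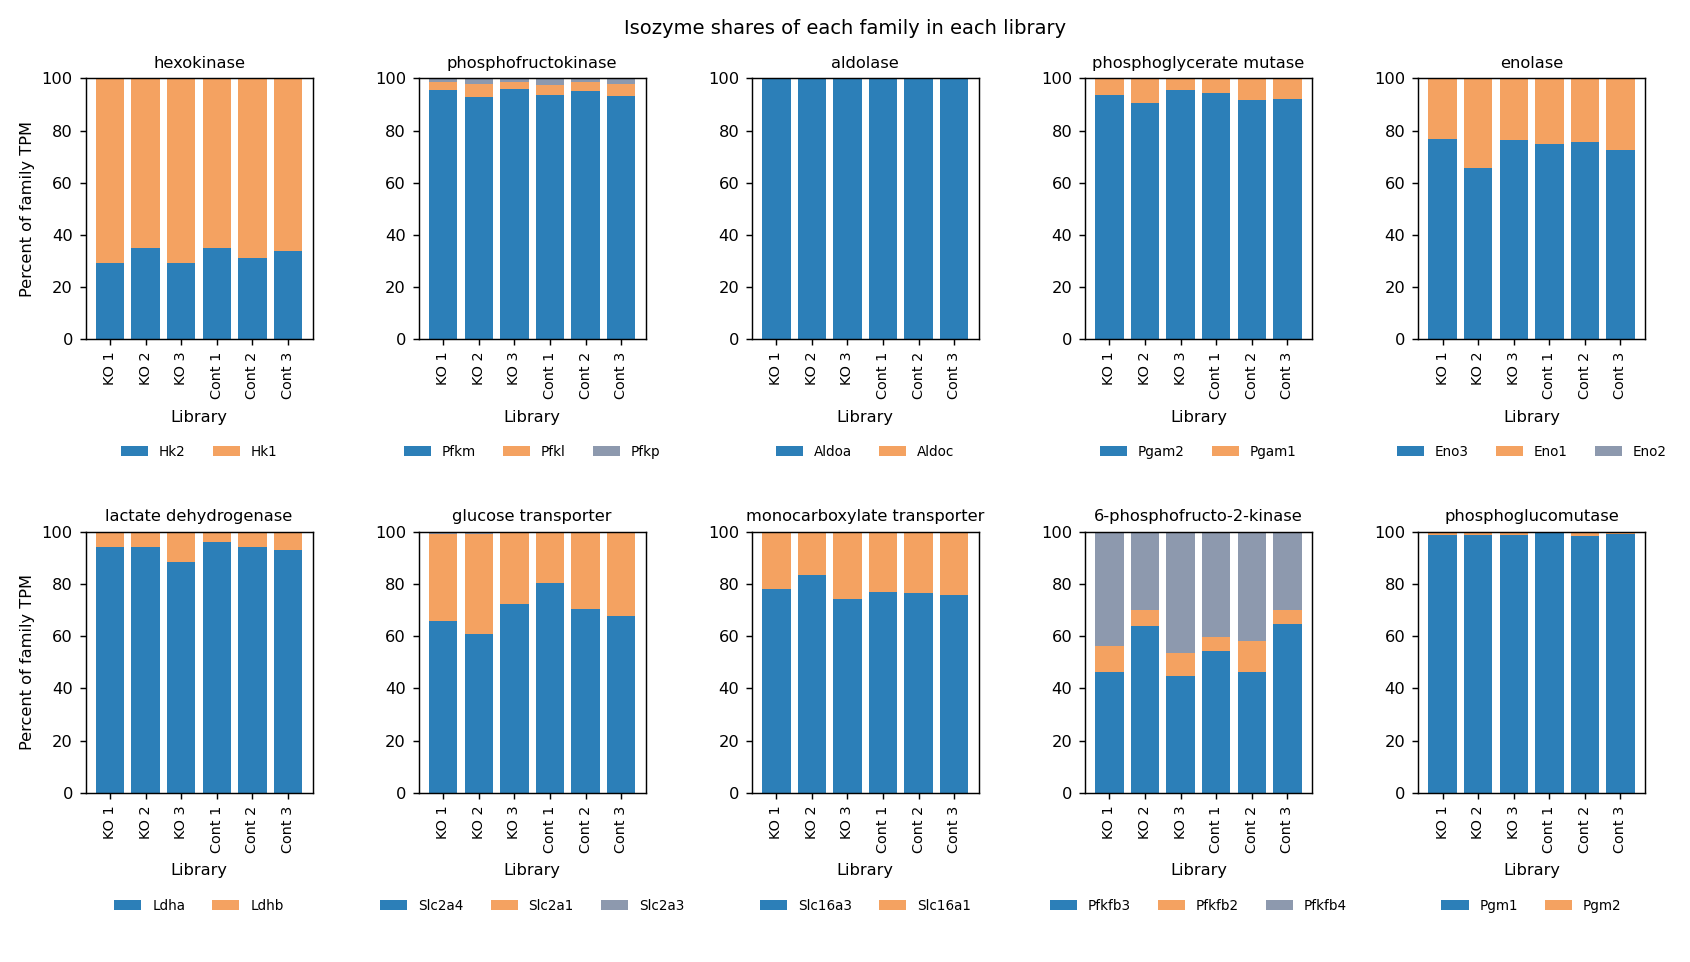
Percent of each family's TPM (y axis) held by each isozyme gene (colours) in each library (x axis, KO for SFPQ_KO), for 10 families; bars start at 0 and stack to 100. The shares of the genotypes overlap in every panel, and the KO 2 library has a smaller Eno3 share (65.6%) than the other 5 libraries.

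Expressed genes of long genomic span are a class of interest in the series' title, and few glycolytic genes are long. The tested genes spanned 2.16 to 133 kb (median 19.8 kb) in the RefSeq gene table of GRCm38.p6, and 2 of 31 reached 100 kb, Gpd2 (133 kb, chromosome 2, 57237678 to 57370719) and Hk1 (111 kb, chromosome 10, 62268855 to 62379920). Both were among the 8 genes with an unadjusted p under 0.05 and among the 8 without overlap. The matching shares over all tested genes of 100 kb or more were not computed, so nothing about span follows from these 2 genes. Among the shorter genes of those 8 were Tpi1 (3.57 kb), Slc2a4 (5.93 kb) and Pkm (22.8 kb). Across the 31 genes the Spearman correlation of span with the log2 difference was −0.27 and that of mean TPM with the log2 difference −0.05, as descriptions across genes measured in the same libraries. Tpi1, Pgm1, Pfkm, Pfkp, Aldoa and Eno3 each share genomic sequence with a coding gene of the other strand, as does Pfkfb2, and no source used here says whether counting used strand, so their values are uncertain. Gapdh, Aldoa, Pgk1, Ldha and Eno1 are known to have processed pseudogenes. Pseudogenes were not looked for here, neither for these genes nor for the others. How reads shared with pseudogenes were counted is not stated, so such levels are uncertain too.

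Of 24 further isozyme and transporter genes, 9 were tested, and 14 stayed under 1 TPM in every library, among them Pklr and Slc2a2, known from liver, and the testis forms Pgk2, Gapdhs and Ldhc. Of the 9 tested, 0 passed and 8 had lower values (64.5% of all tested genes did), with Adpgk, which phosphorylates glucose with ADP in place of ATP, at 12.4, 13.8 and 12.2 TPM in SFPQ_KO and 14.2, 18.8 and 16.7 TPM in Cont (limma adjusted p = 0.367). Pgm5, a muscle relative of phosphoglucomutase without its activity, was at 109.9, 73.5 and 96.5 TPM in SFPQ_KO and 99.7, 126 and 104 TPM in Cont.

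Of 36 tested partners and regulators, 0 passed, 30 had lower values (64.5% of all tested genes did) and 3 were lower at an unadjusted p under 0.05, a share near the 9.61% of all tested genes, with a median log2 difference of −0.24. Mpc1, a subunit of the carrier that brings pyruvate into mitochondria, was at 116, 118 and 106 TPM in SFPQ_KO and 158, 126 and 143 TPM in Cont, without overlap (log2 difference −0.33, SE 0.11, limma adjusted p = 0.324). Hif1a, the oxygen-regulated factor known to drive many glycolytic genes, was at 18.3, 20.1 and 15.8 TPM in SFPQ_KO and 21.0, 22.7 and 25.4 TPM in Cont, also without overlap (adjusted p = 0.364). Epas1, the other gene at that p, was at 1.51, 0.498 and 0.856 TPM in SFPQ_KO and 1.42, 1.86 and 2.08 TPM in Cont, with groups that overlapped (adjusted p = 0.395). Egln3, a prolyl hydroxylase that marks Hif1a for breakdown and is itself a known Hif1a target, did not reach that p (0.0520 unadjusted in limma). It was at 179, 280.1 and 173 TPM in SFPQ_KO and 386, 222 and 402 TPM in Cont. SFPQ_KO replicate 2 was again the highest of its group and Cont replicate 2 the lowest of the controls.

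Of 22 tested genes of side branches and shuttles, 0 passed, 20 had lower values (64.5% of all tested genes did) and 6 were lower at an unadjusted p under 0.05 (9.61% of all tested genes were), with a median log2 difference of −0.17. Got1, the cytosolic transaminase of the malate-aspartate shuttle that returns NADH electrons from glycolysis to mitochondria, was at 122, 172 and 155 TPM in SFPQ_KO and 415, 259 and 387 TPM in Cont. The groups did not overlap, and the log2 difference was −1.22 (SE 0.21, limma adjusted p = 0.137). Slc25a12, the aspartate-glutamate carrier of the same shuttle, was at 124, 141 and 135 TPM in SFPQ_KO and 322, 165 and 262 TPM in Cont (log2 difference −0.85, SE 0.23, adjusted p = 0.266). Mdh1 and Got2, 2 further shuttle enzymes, had log2 differences of −0.42 and −0.45, and no library of SFPQ_KO reached the Cont range for either.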

How the data were processed

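PolyA RNA of 6 libraries (3 SFPQ_KO, 3 Cont, by title) was sequenced on an Ion Proton, per the series' design text. Each deposited file gives TPM per RefSeq accession, as computed by the authors, and sums to 1000000. Reads were aligned with STAR 2.4.1d to mm10, per the submitters' processing notes. How reads were counted, with which annotation and whether by strand, is not stated in any source used here. TPM keeps no depth, so the depth is unknown, no counting interval is given and no count model was used.

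Of 34671 accessions 30818 were named from the RefSeq gene table of GRCm38.p6 and 107 through GENCODE, and 3746 (1.19% to 1.27% of TPM) kept their accession. TPM was summed per symbol, and each listed gene had a single accession. Genes that reached 1 TPM in 3 or more libraries entered limma 3.58.1 (R 4.3.3) on log2(TPM + 1) with intensity trend, 2-sided, Benjamini-Hochberg at 0.05 over all genes. Differences on this scale understate the change of low genes. Shares used exact permutation tests (scipy 1.17.1). The test was checked on simulated data. Alternatives were other pseudocounts, filters and thresholds, limma without trend, median-of-ratios and quantile scaling, a replicate block and leaving out each library. The genes, lists and tests were chosen with earlier results of these data known. The text names all 34 listed genes, Sfpq, up to 5 genes with the smallest p from each neighbouring list and up to 3 abundant markers per cell type; Pdk1, Slc2a6, Slc2a8, the scarce isozymes and the markers Myf5 and those at or near 0 were named after their values were seen. Promoter sequences are RefSeq's, matched by symbol.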

Additional observations from a re-analysis of the deposited data

How the results depend on the processing

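Over 16 alternatives 27 of 31 genes kept the direction of their log2 difference wherever they were tested (Pfkfb2 and Pgm2 were not at a mean TPM of at least 5), and none passed an adjusted p of 0.05 in any of them. The exceptions were Pgam2 (0.037 after median-of-ratios scaling), and, with a library left out, Pgam2 (−0.24 to 0.19), Slc16a3 (−0.60 to 0.11), Ldhb (−0.12 to 0.41) and Pgam1 (−0.42 to 0.0084). The adjusted p of Hk1 ran from 0.165 to 0.525 and that of Gpi1 from 0.164 to 0.586. Over all genes, 13 passed with a pseudocount of 5, 7 with a mean TPM of at least 5, 2 in limma without trend and 28 at an adjusted p under 0.1, where the main setting had 0. Listed genes lower at an unadjusted p under 0.05 numbered 8 of 31 in the main setting, beside 9.61% of all tested genes. They numbered 5 of 33 without a filter (1674 of 22395 among all) and 4 of 32 after median-of-ratios scaling (5.27% of all). With a library left out they ran from 4 to 19 of 31. Among all tested genes the range was then 650 of 12293 to 1265 of 12295. The median over the listed genes ran from −0.53 to −0.24 with a library left out. Over all tested genes, same-numbered libraries did not vary together (correlations of −0.26, −0.25 and 0.05 of their deviations from the group means). The labels do not say whether the numbers pair libraries, and correlations over so few libraries cannot exclude it. With the replicate block 4 of 31 listed genes were lower at an unadjusted p under 0.05, beside 835 of 12460 among all tested genes. With a library left out the difference in share, in percentage points, ran from −0.0078 to 0.033 for Aldoa, from −0.71 to 1.78 for Pgam2, from −3.51 to 1.98 for Eno3, from −0.33 to 4.28 for Slc16a3 and from −9.58 to 1.33 for Pfkfb3. The cause of these changes was not tested. Without read depth, whether a low level such as that of Slc2a3 or Fbp2 is limited by depth is unknown.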
